A study of Mus musculus with 12 samples.

Results

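Catecholamine and acetylcholine transmission was followed through 10 genes in mouse N2A neuroblastoma cells: Th, Ddc and Dbh, the enzyme genes of noradrenaline synthesis; Slc18a1 and Slc18a2, the vesicular monoamine transporters; Slc6a2 and Slc6a3, the plasma membrane transporters that take up noradrenaline and dopamine; and Ache, Chat and Slc18a3, which encode the enzyme that splits acetylcholine, the enzyme that makes it and its vesicular transporter. The genes were chosen by name, with earlier results of these data known. They were taken as probe sets of an Affymetrix Mouse Gene 1.0 ST array carrying exactly 1 of these symbols. Each of the 10 had 1 such probe set, among 19938 genes with a single symbol.

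N2A cells had been stably transfected with a short hairpin RNA plasmid, either a non-targeting control or one directed at the long non-coding RNA Dali (knockdown, KD), together with a hygromycin resistance plasmid, so that every group carried both plasmids and had passed through hygromycin selection. Control and KD cells were profiled while proliferating in medium with 10% fetal bovine serum and after 72 h with 20 µM all-trans retinoic acid (RA) in medium with 2% serum. RA and the lower serum came together and cannot be told apart. This gave 4 groups of 3 arrays. Drug-resistant clones were isolated and expanded, and the control was a single line; the study describes the samples of a group as biological replicates, and the labels do not say which clone or culture each KD array came from, so differences between clones cannot be told apart from the knockdown. No probe set carries the name of Dali, so the depth of the knockdown was not measured on these arrays.

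Catecholamine neurons convert tyrosine to L-DOPA by tyrosine hydroxylase (Th, the rate-limiting step), L-DOPA to dopamine by aromatic amino acid decarboxylase (Ddc) and dopamine to noradrenaline by dopamine beta-hydroxylase (Dbh), which works inside the vesicle that Slc18a2 or Slc18a1 fills. Cholinergic neurons make acetylcholine by choline acetyltransferase (Chat), load it by Slc18a3 and end its action by acetylcholinesterase (Ache). Slc18a3 lies within the Chat gene, an arrangement known as the cholinergic gene locus. Sympathetic neuroblasts, the cells from which neuroblastoma arises, can hold parts of both programmes.

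The results turned on Th, Dbh and Ache, and the 250 bases before the transcription start of these 3 genes are shown to let the regulatory letters be set beside the levels. The sequences are those of RefSeq on GRCm38.p6, at chr7:142899996-142900245 on the minus strand for Th, chr2:27165257-27165506 on the plus strand for Dbh and chr5:137288004-137288253 on the plus strand for Ache. Capitals mark TGACG, the core of the cyclic AMP response element; ATTA, the core bound by homeodomain proteins; and GGGCGG, the core of the Sp1 site; each on either strand.
Th: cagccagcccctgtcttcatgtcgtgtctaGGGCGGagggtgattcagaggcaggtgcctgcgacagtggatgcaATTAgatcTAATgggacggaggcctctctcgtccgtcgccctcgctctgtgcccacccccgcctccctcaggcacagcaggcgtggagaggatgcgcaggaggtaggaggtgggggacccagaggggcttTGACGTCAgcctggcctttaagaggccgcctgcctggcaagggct
Dbh: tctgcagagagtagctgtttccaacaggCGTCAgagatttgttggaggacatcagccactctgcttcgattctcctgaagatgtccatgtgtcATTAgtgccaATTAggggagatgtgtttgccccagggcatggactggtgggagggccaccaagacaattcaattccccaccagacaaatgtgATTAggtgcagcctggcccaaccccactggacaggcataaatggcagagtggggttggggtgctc
Ache: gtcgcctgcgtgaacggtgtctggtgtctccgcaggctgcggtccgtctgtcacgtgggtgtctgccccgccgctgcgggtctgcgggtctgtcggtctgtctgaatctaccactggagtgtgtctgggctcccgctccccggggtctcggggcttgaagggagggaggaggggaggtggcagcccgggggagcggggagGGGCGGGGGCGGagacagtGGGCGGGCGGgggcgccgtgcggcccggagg
The Th sequence held the full palindrome TGACGTCA beginning 45 bases before the start, within which both overlapping copies of TGACG lie. It also held ATTA at 175 and 167 bases and GGGCGG at 220 bases. The Dbh sequence held ATTA at 157, 147 and 65 bases before the start and TGACG at 222 bases. The Ache sequence held neither, and carried GGGCGG at 50, 44, 31 and 27 bases, the last pair overlapping. Among 32851 promoter windows of 300 bases (250 before and 50 after each start), 1.79% held TGACGTCA, 20.8% TGACG, 58% ATTA and 35.7% GGGCGG, while 20% held ATTA at least 3 times and 5.49% held GGGCGG at least 4 times. The window of Slc18a2 also held TGACGTCA, beginning 4 bases before its start. Those of Ddc, Slc6a3, Chat and Slc18a3 did not, and Slc18a1 and Slc6a2 were not analysed here. Such matches describe letters and not occupied sites.

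The deposited values are log2 signals that the authors normalised between arrays, and a difference of 1 is a doubling of signal. A gene was called when limma's moderated test gave an adjusted p under 0.05 over the 9969 genes that remained after the less variable 50% were dropped, together with a change of at least 1.3-fold, which is 0.38 on the log2 scale. Of the 10 genes, 7 remained; Slc6a2, Slc6a3 and Slc18a3 varied too little and their adjusted p-values come from the fit without that filter. As a rough guide to the background, the mean signals of 1035 olfactory receptor probe sets had a central 95% range of 2.80 to 6.98. Th (mean 8.88), Dbh (7.79), Slc18a2 (11.5) and Ache (9.57) were above that range. Ddc (6.63), Slc18a1 (6.59), Slc6a2 (6.60), Slc6a3 (6.77), Chat (6.44) and Slc18a3 (6.89) were inside it, so their transcripts were not separable from background by this measure. Probes differ in affinity, and these means do not order the genes by transcript number.

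All 6 measured sympathoadrenal markers (Phox2a, Hand2, Gata2, Gata3, Isl1 and Insm1) and 4 of 6 pan-neuronal markers were above the olfactory range, against 2 of 4 motor neuron, 2 of 4 glial, 2 of 5 fibroblast and none of 5 immune and endothelial markers. Outside the sympathoadrenal list, marker calls were confined to RA: Gap43, a growth cone gene, fell by 0.41 in KD cells, and Pecam1 fell by 0.63 in control cells and 0.53 in KD cells. The Gap43 mean went from 10.58 to 10.39 in control cells, which was not called. The mean level of the sympathoadrenal list lay between 9.36 and 9.58 on the 12 arrays. The pan-neuronal list lay between 8.67 and 8.69 on the KD arrays after RA, below every array of the other groups (8.73 to 8.93). The glial list lay between 6.91 and 7.003 on the proliferating arrays, between 6.88 and 6.97 on the control arrays after RA and between 6.80 and 6.85 on the KD arrays after RA. The part of either list in the results was not tested. Array medians lay between 7.15 and 7.21.

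**Figure D1:**
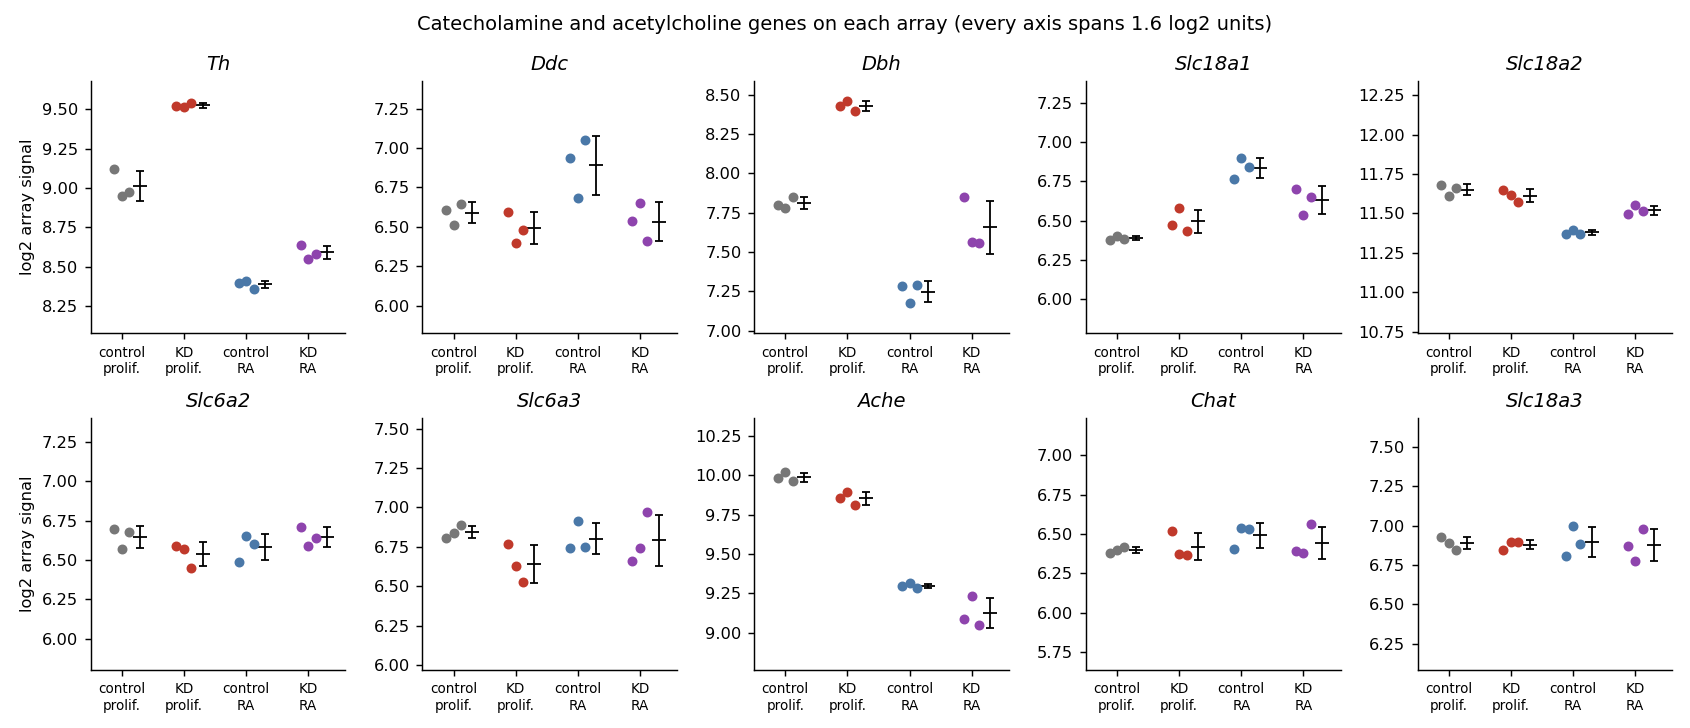
Log2 array signal of the 10 genes (1 panel each, every axis 1.6 log2 units tall) in proliferating and RA-treated control and KD cells; points are arrays, and the bar beside them is the mean ± SD of 3 arrays. Th and Dbh were highest in proliferating KD cells, Ache separated by RA, and all groups overlapped for Slc6a2, Chat and Slc18a3.

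The enzymes at both ends of noradrenaline synthesis were higher in KD cells. Th signal was 9.12, 8.95 and 8.97 on the proliferating control arrays and 9.52, 9.51 and 9.54 on the KD arrays. All KD arrays lay above all control arrays. Th rose by 0.51 ± 0.05 on the log2 scale (SE; 95% interval 0.40 to 0.62), a 1.43-fold difference, with an adjusted p of 3.02e-05 in limma. After RA, Th signal was 8.40, 8.41 and 8.36 in control cells and 8.64, 8.55 and 8.58 in KD cells. The groups were again apart, with a difference of 0.20 ± 0.05 (adjusted p = 0.00851 in limma), but the 1.15-fold size was under the cutoff and Th was not called.

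Dbh signal was 7.80, 7.78 and 7.85 on the proliferating control arrays and 8.43, 8.46 and 8.39 on the KD arrays. Dbh rose by 0.62 ± 0.07 (95% interval 0.46 to 0.78), or 1.53-fold, with an adjusted p of 9.05e-05 in limma. After RA it was 7.28, 7.17 and 7.29 in control cells and 7.85, 7.56 and 7.55 in KD cells. The 3 KD arrays were above the 3 control arrays, and the KD arrays varied more than in any other group (SD 0.17, against 0.03 to 0.06). Dbh was thus 0.41 ± 0.07 higher in KD than in control cells after RA (95% interval 0.25 to 0.57, adjusted p = 0.00117 in limma), 1.33-fold. This call depended on single arrays: without KD replicate 1 the difference was 0.31, and without control replicate 2 it was 0.37, both under the cutoff with adjusted p-values of 0.0013 and 0.00627. With the arrays centred on their medians it was 0.37, also under the cutoff.

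Ddc, the enzyme between them, was not called in KD cells. In proliferating cells its difference was -0.10 ± 0.09 (adjusted p = 0.468 in limma). After RA it was 6.94, 6.68 and 7.05 in control cells and 6.54, 6.65 and 6.41 in KD cells. The KD arrays lay below the control arrays, the nearest pair being separated by less than the spread within either group. The difference was -0.36 ± 0.09 (adjusted p = 0.0104 in limma), just under the cutoff, and Ddc was called in this comparison without control replicate 2 (-0.46) and without KD replicate 2 (-0.42). After median centring the difference was -0.40, but Ddc then fell outside the variance filter and was not among the genes tested there. Its signal stayed within the olfactory range apart from the highest control array after RA.

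Neither vesicular monoamine transporter was called between KD and control cells. Slc18a2 signal was 11.68, 11.61 and 11.66 on the proliferating control arrays and 11.65, 11.62 and 11.57 on the KD arrays, and these overlapped (difference -0.04, 95% interval -0.13 to 0.05). After RA it was 11.37, 11.40 and 11.37 in control cells and 11.49, 11.55 and 11.52 in KD cells. The KD arrays were all higher, by 0.14 ± 0.04 (adjusted p = 0.0189 in limma), 1.10-fold and under the cutoff. Slc18a1 differed by 0.11 ± 0.06 in proliferating cells (adjusted p = 0.177) and by -0.20 ± 0.06 after RA (adjusted p = 0.0153), neither of them called by limma.

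The plasma membrane transporters and the cholinergic genes were not called in KD cells. Slc6a3 differed by -0.20 in proliferating cells (95% interval -0.38 to -0.02; adjusted p = 0.118 in limma without the filter) and Slc6a2 by -0.11 (95% interval -0.24 to 0.02). After RA their differences were -0.01 (95% interval -0.19 to 0.17) and 0.07 (95% interval -0.06 to 0.20). Ache signal was 9.98, 10.02 and 9.96 on the proliferating control arrays and 9.85, 9.89 and 9.81 on the KD arrays. The KD arrays were all lower, with a difference of -0.13 ± 0.05 and an adjusted p of 0.0627 in limma. After RA it was 9.29, 9.31 and 9.28 in control cells and 9.09, 9.23 and 9.05 in KD cells. The difference was -0.17 ± 0.05 (adjusted p = 0.0196 in limma), again with the arrays apart and again under the cutoff at 1.13-fold. Chat differed by 0.02 and -0.05 and Slc18a3 by -0.01 and -0.02 in the proliferating and RA-treated cells, with 95% intervals that together spanned -0.19 to 0.16.

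In proliferating cells, 2 of the 10 genes were therefore called higher in KD cells and 0 lower, where 3.96% of all tested genes were called higher and 3% lower. After RA, 1 was called higher and 0 lower, beside 3.71% and 4% of all tested genes. Of the 10 genes, 7 were tested. Because the 10 were chosen with earlier results known, the shares here and below are background and no test of the set. The median difference of the 10 genes was -0.02 in both states, and the medians over all 19938 genes were -0.01 and -0.03.

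**Figure D2:**
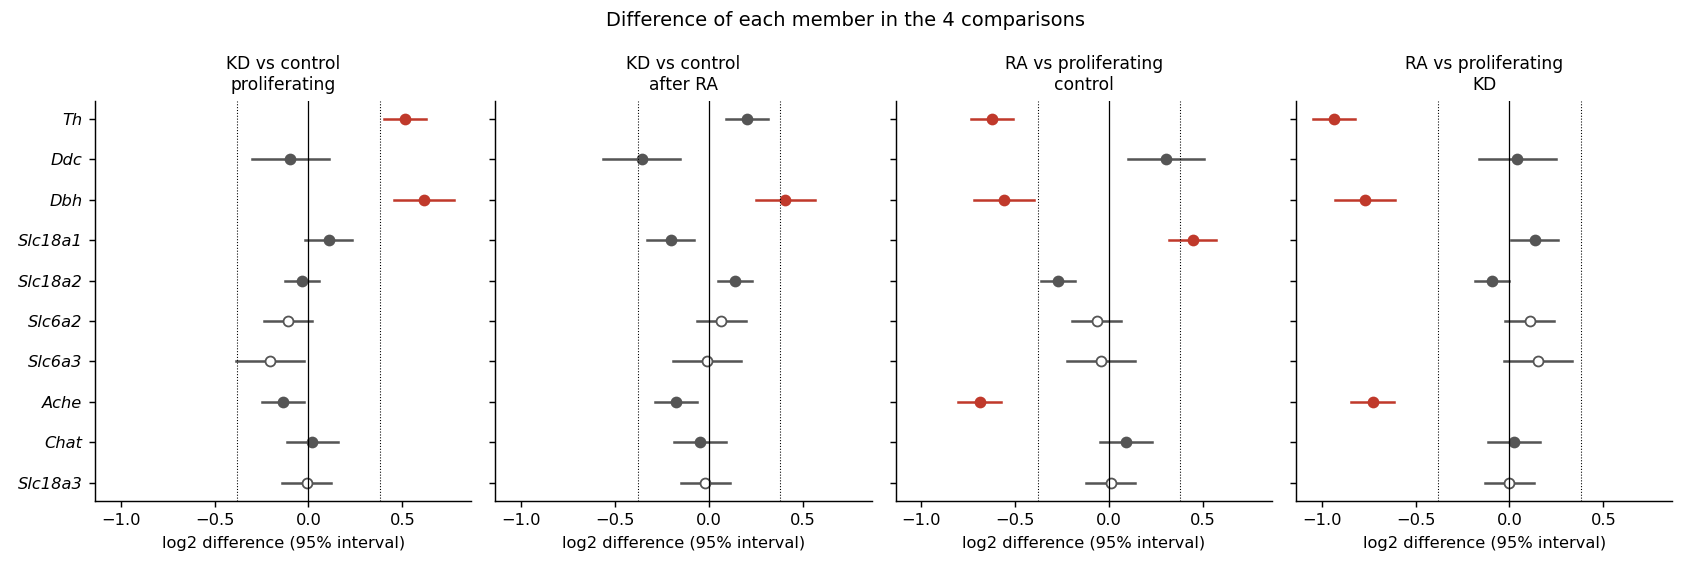
Log2 difference of each of the 10 genes with its 95% interval in the 4 comparisons; red marks called genes, open circles genes outside the variance filter, and dotted lines the 1.3-fold cutoff. Th and Dbh lie to the right in both KD comparisons and to the left in both RA comparisons, while Ache lies to the left in both RA comparisons.

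RA treatment was next compared with proliferation within control and within KD cells; these comparisons share arrays with those of the knockdown, so the values are set side by side. Th fell by 0.62 ± 0.05 on the log2 scale in control cells (adjusted p = 2.42e-06 in limma) and by 0.93 ± 0.05 in KD cells (adjusted p = 1.49e-07). These correspond to signal changes of -35.1% and -47.7%. Dbh fell by 0.56 ± 0.07 in control cells (adjusted p = 0.000103 in limma) and by 0.77 ± 0.07 in KD cells (adjusted p = 8.51e-06). For both genes the 4 groups took the same order, with proliferating KD cells highest, then proliferating control cells, then KD cells after RA and control cells after RA lowest. For Th, no neighbouring groups in that order overlapped. For Dbh, 1 array of KD cells after RA reached the top of the proliferating control range, at 7.852 on both.

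Ache fell by 0.69 ± 0.05 in control cells (adjusted p = 1.27e-06 in limma) and by 0.73 ± 0.05 in KD cells (adjusted p = 8.35e-07), 1.61-fold and 1.66-fold. Every RA array was below every proliferating array. In level, Ache ran from proliferating control cells at the top through proliferating KD cells and control cells after RA to KD cells after RA, and no neighbours in that order overlapped.

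Slc18a1 was the 1 gene of the 10 called higher after RA. It was 6.38, 6.40 and 6.38 in proliferating control cells and 6.77, 6.90 and 6.84 in control cells after RA. It rose by 0.45 ± 0.06 (adjusted p = 9.59e-05 in limma), 1.36-fold, although the signal remained within the olfactory range. In KD cells it was 6.48, 6.58 and 6.43 before and 6.70, 6.53 and 6.65 after RA. These overlapped, with a difference of 0.13 ± 0.06 (adjusted p = 0.0905 in limma). Slc18a2 went the opposite way in control cells, with a difference of -0.27 ± 0.04 (adjusted p = 0.000342 in limma), 1.21-fold and under the cutoff, and -0.09 ± 0.04 in KD cells (adjusted p = 0.104). Ddc was higher after RA in control cells by 0.30 ± 0.09 (adjusted p = 0.0265 in limma), under the cutoff, but it was called without control replicate 2 after RA (0.41). It differed by 0.04 in KD cells. Slc6a2, Slc6a3, Chat and Slc18a3 were not called by either RA comparison, and their differences lay between -0.07 and 0.15.

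In control cells RA thus brought 1 call higher and 3 lower among the 10 genes, beside 5.58% and 3.76% of all tested genes. In KD cells it brought 0 higher and 3 lower, beside 5.37% and 4.57%. In these bulk samples, fewer cells with a transcript and less transcript per cell cannot be told apart.

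Whether the RA response differed between KD and control cells was tested by the interaction term. None of the 10 genes was called by limma in this test, beside 0.492% of all tested genes called higher and 0.752% lower. Th, Slc18a1 and Slc18a2 had an unadjusted p under 0.05 in limma. The share of all tested genes at that threshold was not counted, so their values are description only. For Th the RA difference in KD cells minus that in control cells was -0.31 ± 0.07 (adjusted p = 0.0511 in limma), and for Slc18a1 it was also -0.31, with an SE of 0.08 (adjusted p = 0.0772). For Slc18a2 it was 0.18 ± 0.06 (adjusted p = 0.146). For Ache the interaction was -0.04, with a 95% interval from -0.20 to 0.12. For Dbh it was -0.21, with an interval from -0.43 to 0.02.

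The tetrahydrobiopterin cofactor of tyrosine hydroxylase and the later fate of catecholamines were covered by 17 further genes, of which 14 were measured and 10 tested. In KD against control cells, 0 were called higher and 3 lower while proliferating, and 0 higher and 2 lower after RA. Of all tested genes, 3.96% were called higher and 3% lower while proliferating, and 3.71% and 4% after RA. The lists were chosen with earlier results known, so these counts are no test of them. Qdpr, which regenerates the cofactor, fell by 0.43 ± 0.06 and 0.50 ± 0.06 in the 2 states (adjusted p = 0.000234 and 8.23e-05 in limma). Slc29a4, a low-affinity monoamine uptake transporter, fell by 0.54 in both (adjusted p = 1.36e-05 and 1.31e-05). Gchfr, the feedback regulator of cofactor synthesis, fell by 0.41 ± 0.07 in proliferating KD cells (adjusted p = 0.00118 in limma), a call lost without KD replicate 2 (-0.38). With RA, Gchfr fell by 0.69 in control cells and by 0.44 in KD cells. Qdpr fell by 0.39 in KD cells and by 0.31 in control cells, the latter under the cutoff. The call of Gchfr in KD cells was lost without KD replicate 2 after RA (-0.35), and that of Qdpr without KD replicate 2 of either state or KD replicate 3 after RA (-0.34 to -0.37) and after repeated quantile normalisation (-0.36).

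Serotonin synthesis held a gene with the same directions as Th and Dbh. Among Tph1, Tph2, Slc6a4, Hdc and Hnmt, 2 passed the filter and Tph1, a tryptophan hydroxylase related to Th, was called in all 4 comparisons. Tph1 signal was 7.13, 7.18 and 7.10 on the proliferating control arrays, 7.65, 7.76 and 7.68 on the KD arrays, 6.25, 6.33 and 6.34 in control cells after RA and 6.85, 6.87 and 6.74 in KD cells after RA. None of the groups overlapped. Every Tph1 value after RA lay within the olfactory range, and every value in proliferating cells lay above it. It rose by 0.56 ± 0.05 and 0.51 ± 0.05 in KD cells (adjusted p = 1.89e-05 and 3.20e-05 in limma), and fell by 0.83 and 0.88 with RA in control and KD cells (adjusted p = 3.34e-07 and 2.52e-07).

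Of 21 cholinergic accessory genes, 20 were measured and 13 tested. None was called in proliferating KD cells, where Chrna5, a nicotinic receptor subunit, was just under the cutoff at 0.374 (adjusted p = 0.0164 in limma) and was called after repeated quantile normalisation and without proliferating control replicate 3, KD replicate 1 or KD replicate 3 (0.387 to 0.404). After RA, KD cells had 1 higher, Chrna5, and 1 lower, Prima1, beside 3.71% and 4% of all tested genes. Prima1 encodes the membrane anchor of acetylcholinesterase. Its signal was 8.49, 8.59 and 8.61 in control cells after RA and 8.21, 8.12 and 8.11 in KD cells after RA, a fall of 0.42 ± 0.05 (adjusted p = 0.000128 in limma). The 4 group means of Chrna5 (6.10 to 6.89) were all within the olfactory range. After RA it was 0.39 ± 0.11 higher in KD than in control cells (adjusted p = 0.012 in limma). That call was lost without control replicate 3 (0.32, adjusted p = 0.0527), KD replicate 1 (0.27) or KD replicate 2 (0.375) of the RA-treated cells, after median centring (0.35) and with the 2 groups fitted alone (adjusted p = 0.0524). With RA, Chrna3 rose by 0.48, Chrna5 by 0.40, Chrna7 fell by 0.41 and the choline transporter gene Slc44a1 fell by 0.40 in control cells, and Chrna5 rose by 0.42 in KD cells. In KD cells the RA differences of Chrna3 (0.31), Chrna7 (-0.25) and Slc44a1 (-0.16) had the same signs and were not called. The Slc44a1 call was lost without proliferating control replicate 1 or 2 or control replicate 1 after RA (-0.36 to -0.38, adjusted p from 0.0551 to 0.07), and the 2 Chrna5 calls were lost without control replicate 1 (0.36) and KD replicate 1 (0.30) after RA respectively. Of the dopamine and adrenergic receptor genes, 7 of 14 were measured, 1 was tested and 0 were called.

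**Figure D3:**
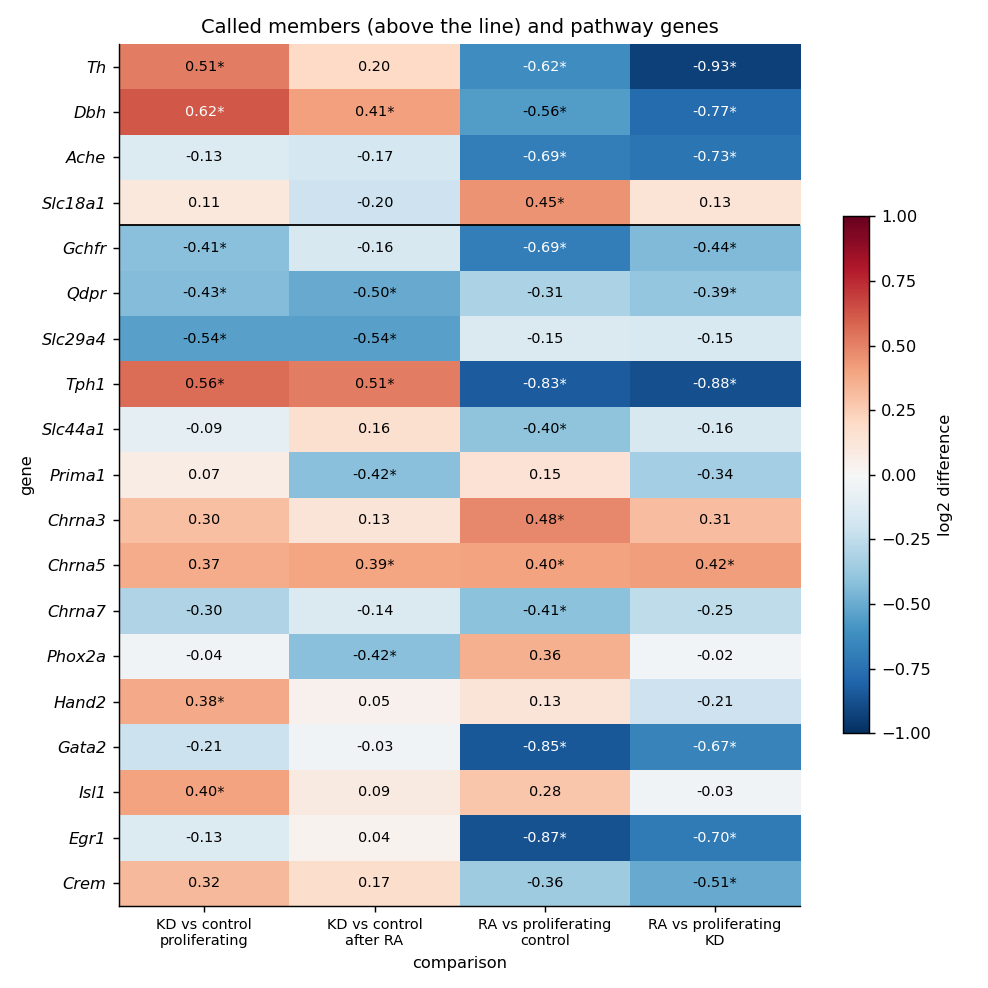
Log2 difference (colour and number) of the 4 called genes of the 10 and of the 15 called genes of the surrounding pathways in the 4 comparisons; an asterisk marks a call. Tph1 and Crem take the signs of Th and Dbh in all 4 columns, while Qdpr and Slc29a4 were lower in both KD columns.

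Among 20 transcription factor genes linked to Th and Dbh, 18 were measured and 13 tested. In proliferating KD cells Hand2 and Isl1, factors of the sympathetic lineage, rose by 0.38 ± 0.06 and 0.40 ± 0.06 (adjusted p = 0.000457 and 0.000555 in limma) and none fell. Of all tested genes, 3.96% were called higher and 3% lower in this comparison. Hand2 and Isl1 both lay at the cutoff. Hand2 was not called without proliferating control replicate 1 (0.34), KD replicate 2 (0.36) or KD replicate 3 (0.37), after median centring (0.377) or with array weights (0.377). Isl1 was not called without control replicate 2 (0.36) or 3 (0.36) or after repeated quantile normalisation (0.37). Among RA-treated cells, Phox2a, a homeodomain activator of the Dbh promoter, was 0.42 ± 0.06 lower in KD than in control cells (adjusted p = 0.000384 in limma). Without KD replicate 3 it was 0.36 lower, under the cutoff. From proliferation to RA, Phox2a rose by 0.36 ± 0.06 in control cells (adjusted p = 0.000911 in limma), under the cutoff. It was called there without control replicate 2 after RA (0.40). In KD cells its RA difference was -0.02. The interaction term of Phox2a was -0.38 ± 0.09 (adjusted p = 0.0511 in limma), not called, and it was called with the filter on level, after median centring (-0.42), with an intensity trend and without KD replicate 1 after RA (-0.45). Those of Hand2 and Isl1 were -0.33 and -0.31 (adjusted p = 0.062 and 0.099) and were called without KD replicate 1 after RA (-0.39) and without proliferating control replicate 1 (-0.39) respectively. After RA, Dbh was higher and Phox2a lower in KD cells than in control cells, and a link between the 2 was not tested. With RA, Gata2 fell by 0.85 in control cells and 0.67 in KD cells, and the immediate-early gene Egr1 fell by 0.87 and 0.70 (adjusted p at most 1.25e-05 in limma for these 4). Crem fell by 0.51 in KD cells (adjusted p = 2.83e-05 in limma). In control cells Crem fell by 0.36 (adjusted p = 0.000412 in limma), under the cutoff. It was called there without proliferating control replicate 3 (-0.40). The interaction term of Crem was -0.15 (adjusted p = 0.35 in limma), not called.

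The 25 genes on each side of a gene in RefSeq order were set beside it to see whether its difference was shared along the chromosome. The 50 neighbours of Dbh had median KD differences of -0.02 in proliferating cells and -0.07 after RA, and none exceeded Dbh in either state. Those of Th had medians of -0.02 and 0.03. In proliferating cells 1 neighbour of Th, Slc22a18, was higher in its difference (0.81), and after RA 4 were, namely Slc22a18 (0.80), Phlda2 (0.52), Tnfrsf22 (0.27) and Krtap5-3 (0.25), named here after their values were seen. The neighbours of Ache had medians of -0.06 and -0.10, with 11 of 50 above 0 in each state, beside -0.13 and -0.17 for Ache itself. Slc6a3 lay among neighbours with medians of 0.17 and 0.12, opposite in sign to its own -0.20 and -0.01.

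**Figure D4:**
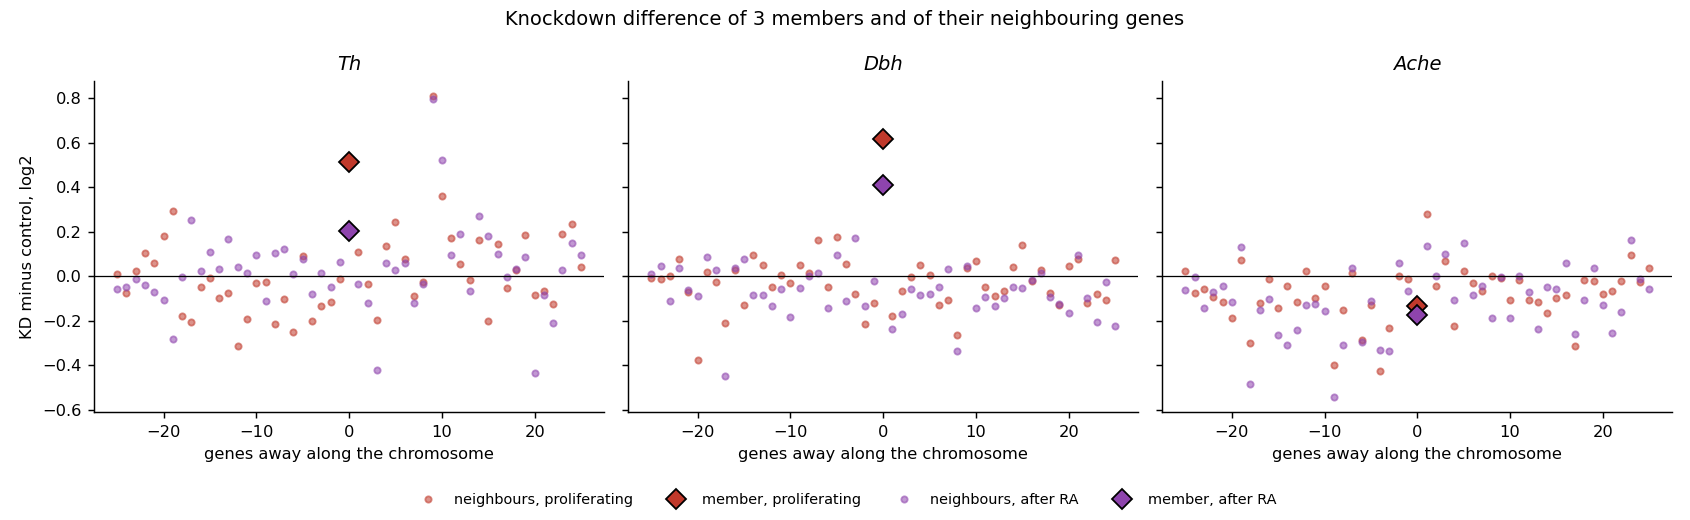
Log2 KD minus control difference (vertical axis) of Th, Dbh and Ache (diamonds) and of the 25 genes on each side of them in chromosome order (dots; horizontal axis, genes away), in proliferating cells (red) and after RA (purple). The Dbh diamonds stand above all 50 neighbours, whereas the Ache diamonds lie within the spread of theirs.

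Across the 12 arrays, the 3 genes most like each called gene were listed among 9407 tested genes, as a description in which all genes share the same arrays and groups. Th was most like Fig4 (Pearson r = 0.992), Clcn6 (0.992) and Nuak1 (0.989). Dbh was most like Nupr1 (0.985), Nars (0.977) and Inpp5f (0.976). Ache was most like Nr1d1 (0.990), Mpp6 (0.989) and Hdac5 (0.988), and Slc18a1 was most like Nt5dc2 (0.972), Ccnd1 (0.962) and Tmem238 (0.961).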

How the data were processed

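RNA of 12 samples was hybridised to single-colour arrays. The authors corrected the background by RMA, quantile normalised the arrays and summarised them by gene in R, and deposited 1 log2 value for each of 35556 probe sets. RMA and limma stand in the submitters' processing notes, with tool versions not given in the sources used here. Values were used as deposited. Probe sets were named by the platform annotation: 21789 had 1 gene symbol, 1621 several and 12146 none, and the largest interquartile range chose 1 probe set a gene. Following the study's methods, the lower 50% of genes by interquartile range were dropped, and limma 3.58.1 (R 4.3.3) fitted 4 group means with 5 contrasts and Benjamini-Hochberg adjustment over 9969 genes. The fit was checked on simulated data. The named genes were all 10 genes, pathway genes called in at least 1 comparison, and the 3 most correlated genes of each called gene. Alternatives changed the filter, probe set choice, scaling, weights, variance prior, cutoff or arrays used. The members and lists were chosen with earlier results of these data known. Hybridisation batches were not known, and the number of arrays limits the precision. Transporter proteins were not analysed here. Some genes of the pathway lists are not reported here.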

Additional observations from a re-analysis of the deposited data

Results flagged for a closer look

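The RA response of Prima1, the gene of the acetylcholinesterase membrane anchor, differed between KD and control cells by the interaction term of limma (-0.49 ± 0.07 on the log2 scale, adjusted p = 0.0106). Its RA difference was 0.15 in control cells and -0.34 in KD cells, neither of them called. Over 21 alternatives the interaction lay between -0.53 and -0.45 and the adjusted p between 0.0005 and 0.039.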

How the results depend on the processing

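The counts of called genes among the 10 were 2, 4, 3 and 0 for KD in proliferating cells, RA in control cells, RA in KD cells and the interaction, and stayed within 1.5 times of these under every alternative run, array omissions included. After RA, the 1 call in KD cells (Dbh) became 0 with arrays centred on their medians (Ddc, at -0.40, then lay outside the variance filter and was not counted), 6 without the fold cutoff (Th, Ddc, Dbh, Slc18a1, Slc18a2 and Ache, still with an adjusted p under 0.05), and 0 to 2 when single arrays were left out. Same-numbered arrays were not treated as pairs in the main fit. Their deviations correlated between -0.078 and 0.208, with 4 of 18 pairs over 0.1. Differently numbered arrays were not compared, so whether replicate numbers mark shared handling is not known. With the replicate number as a block the counts were 2, 1, 4, 3 and 0 for KD in proliferating cells, KD after RA, RA in control cells, RA in KD cells and the interaction. Of 41 called differences of named genes, 30 stayed called under every alternative, 11 lost the call under at least 1, as given beside each of them, and none changed sign. For these, a gene outside the filter of an alternative was judged there by the fit without a filter. The counts among the 10 genes left such genes out. Over all genes, dropping the fold cutoff raised the calls from 694, 769, 931, 991 and 124 to 3485, 3726, 3298, 3652 and 206 in the same order. Leaving out single arrays took the interaction's 124 calls down to as few as 42. Median centring moved the share of calls that were higher after RA from 48.1% to 34% in KD cells against control and from 39.5% to 24.5% for the interaction, and repeated quantile normalisation moved the latter to 59.4%. Genes inside the olfactory range are limited by signal over background.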
